A study of Homo sapiens with 4 samples.

Results

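The mitochondrial genome is represented by 16 genes among the 32673 genes of the expression table, namely those whose symbol starts with MT- and whose position lies on the mitochondrial chromosome. They fall into 13 protein-coding genes, 2 ribosomal RNA (rRNA) genes and 1 transfer RNA (tRNA) gene, MT-TP. The GENCODE 44 annotation places 37 genes on this chromosome, and the other 21, all tRNA genes, were not analysed here. All 16 genes have the same start, end and strand in both annotations.

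RNA was sequenced from TF1-BA and TF1-BAR cells, which the methods of the paper call mRNA sequencing. Those methods name no step that selects or removes RNA. How fully rRNA and tRNA were captured is therefore not known, and their levels need not follow their abundance. TF1 is a human erythroleukaemia line that depends on granulocyte-macrophage colony-stimulating factor, which the labels give at 2 ng/ml for all cultures. The methods of the paper give a higher concentration. Both lines carry BCR-ABL, introduced with a retrovirus. TF1-BA cells are imatinib sensitive, while the resistant TF1-BAR cells were derived from them by months of exposure and were kept, by the labels, in 2 uM imatinib. The comparison asks how expression in the resistant line differs from that in the sensitive line. Each line gave 2 libraries, each from 10000000 cells, and nothing states that they were separate cultures, so that the spread between them may be technical. The titles call the resistant libraries VECTOR, and a vector, the drug and the resistant state cannot be told apart in these libraries. Each line is represented by 1 derived population. In bulk RNA, fewer cells of a type and less RNA per cell cannot be told apart either. The library sizes recovered from the FPKM were 15465497 to 18042299 fragments, of which 98.9% to 99.0% lay on genes of the table. They need not be all fragments sequenced. All 8 markers fixed for these cells, GATA1, KLF1, TAL1, KIT, CSF2RA, CSF2RB, CD34 and CD33, were above 1 FPKM in every library. Of these, 4 rose in the TF1-BAR cells and 0 fell, beside 16.3% and 10.5% of all genes tested. CD34 (log2 fold change 1.17, limma adjusted p = 0.00409), KIT (1.12, adjusted p = 0.00409), CD33 (0.87, adjusted p = 0.00555) and TAL1 (0.76, adjusted p = 0.00976) rose. The other markers did not pass the test. KLF1 (−0.34, limma adjusted p = 0.0519), CSF2RA (−0.19, adjusted p = 0.155) and GATA1 (−0.14, adjusted p = 0.164) were lower in both TF1-BAR libraries. CSF2RB was higher (0.27, limma adjusted p = 0.0592). CD34 and KIT mark immature blood cells, and the part of these marker differences in the results was not tested. Among markers of other blood cells, CD3E was at or near 0 and CD3D was at 19.2 and 20.7 FPKM in the TF1-BA cells, against 5.74 and 6.36 FPKM in the TF1-BAR cells. NKG7, at 9.25 and 8.64 FPKM in the TF1-BA cells, against 12.2 and 11.6 FPKM in the TF1-BAR cells, and CD79A, at 1.84 and 2.19 FPKM against 3.55 and 3.15 FPKM, moved the other way (limma adjusted p = 0.0254 and 0.0260). The part of these genes in the results was not tested.

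Mitochondrial DNA is a small circle that is transcribed from both strands as long precursors, which span nearly the whole genome. The tRNAs lie between most of the other genes, and cutting at the tRNAs releases the rRNAs and messenger RNAs. The heavy strand is the template for both rRNAs, most tRNAs and all messenger RNAs but one, while MT-ND6 and a few tRNAs, MT-TP among them, come from transcription of the light strand. The proteins are core subunits of respiratory complexes I, III, IV and V, and the rRNAs and tRNAs serve only the ribosomes inside the organelle. Genes cut from one precursor are not independent of each other.

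A few sequences show what can and cannot be separated in these counts. MT-TP, shown because it changed most among the genes that passed the test, encodes the mitochondrial tRNA for proline and lies on the minus strand at chrMT:15956-16023 of GRCh38. Capitals mark the anticodon, found as the middle of a 7-base loop closed by 5 base pairs.
MT-TP: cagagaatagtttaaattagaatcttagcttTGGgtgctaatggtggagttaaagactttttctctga
At 68 bases, the gene is shorter than the 150-base reads, and 68 bases separate it from MT-CYB. The 546 bases after it, up to the end of the reference at position 16569, hold no other gene of the annotation.

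The reading frames of MT-ATP8 and MT-ATP6 share 46 bases on the plus strand at chrMT:8527-8572, shown because MT-ATP8 had few counted fragments. Capitals mark the start codon of MT-ATP6 and the stop codon of MT-ATP8.
MT-ATP8 and MT-ATP6 overlap: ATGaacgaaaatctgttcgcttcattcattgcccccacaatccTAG
MT-ND4L and MT-ND4 overlap by 7 bases, in capitals within chrMT:10736-10790 on the plus strand.
MT-ND4L and MT-ND4 junction: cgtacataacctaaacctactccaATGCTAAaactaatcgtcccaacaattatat
MT-ATP6 and MT-CO3 share 1 base. The library kit is not stated to keep the strand, so that fragments of a gene and of the opposite strand cannot be told apart. This bears most on MT-ND6 and MT-TP, whose minus-strand positions are also covered by the precursor of the other strand.

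Mitochondrial transcripts took a smaller share of the TF1-BAR libraries. They held 10.1% and 9.97% of the recovered library size in the TF1-BA cells against 7.97% and 7.46% in the TF1-BAR cells. The 13 protein-coding genes took 7.47% and 7.30% of the TF1-BA fragments and 5.96% and 5.57% of the TF1-BAR fragments. For the 2 rRNA genes the shares were 2.64% and 2.66% against 2.00% and 1.88%. MT-TP alone took 0.0103% of either TF1-BA library, and 0.00446% and 0.00389% of the TF1-BAR libraries. In each of the 3 classes both TF1-BAR libraries were below both TF1-BA libraries.

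**Figure D1:**
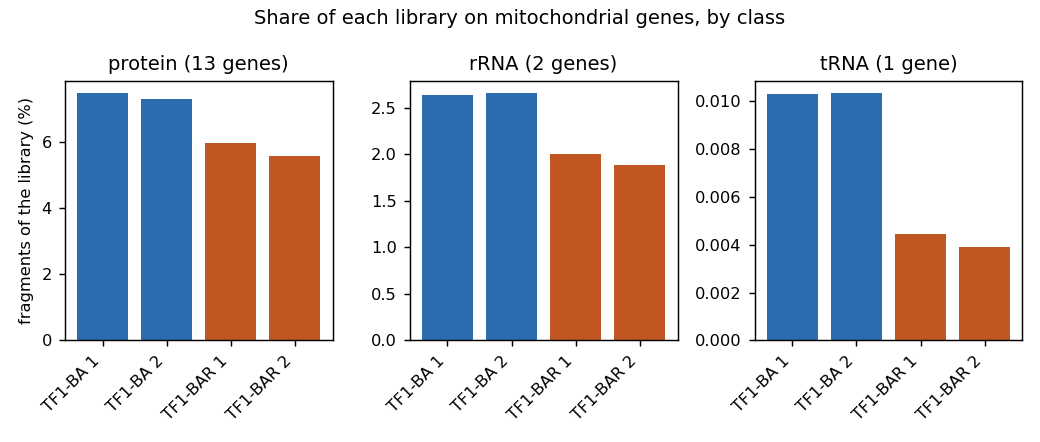
Share of the recovered library size (%, y axis, one scale per panel) on the protein-coding, rRNA and tRNA genes of the mitochondrial genome, with 1 bar per library. The protein-coding share was 7.47% and 7.30% in the TF1-BA libraries, against 5.96% and 5.57% in the TF1-BAR libraries.

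Levels are given in FPKM, fragments scaled to the full gene length and to the recovered library size. Between genes they compare only roughly where a gene is short or overlaps another. Such genes include MT-TP with 68 bases, MT-ATP8 with 207 and MT-ND4L with 297. Summed FPKM of the TF1-BAR cells was 78.6% of the TF1-BA sum for the protein-coding genes, 74.9% for the rRNA genes and 40.5% for the tRNA gene. The mitochondrial genes were among the highest in the table by the mean over the 4 libraries. Of the 19 genes with a mean of at least 1000 FPKM, 15 were mitochondrial, and the 7 highest genes all were. The highest nuclear gene was EEF1A1, which encodes a translation elongation factor, with 2415 and 2458 FPKM in the TF1-BA cells, against 3028 and 3137 FPKM in the TF1-BAR cells. In both TF1-BAR libraries EEF1A1 was above MT-ND1 (2853 and 2634 FPKM) and MT-ATP6 (2966 and 2458 FPKM).

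Within the mitochondrial genome, MT-CO1 had the highest level in all 4 libraries, MT-ATP8 the lowest and MT-TP the next lowest. MT-RNR2 had rank 2 and MT-CO3 rank 3 in 3 libraries, and they changed places in TF1-BAR replicate 2, where the levels were 10506 and 10768 FPKM. MT-CO2 had rank 4 and MT-ND4 rank 5 in every library. The remaining genes lay between 1221 and 3800.0 FPKM, and several changed places between libraries. MT-RNR1 moved from rank 12 of 16 in both TF1-BA libraries to ranks 9 and 7 in the TF1-BAR libraries.

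**Figure D2:**
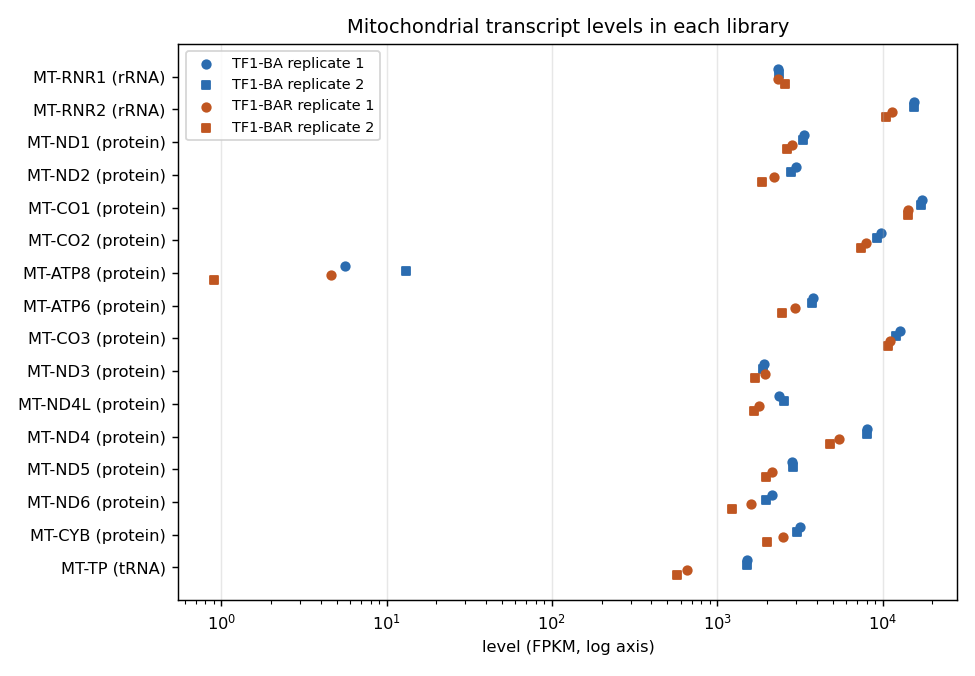
Level of each of the 16 mitochondrial genes in each library (x axis, FPKM on a log axis), with rRNA genes first, then protein-coding genes in genome order, then the tRNA gene. Blue points are TF1-BA and orange points TF1-BAR libraries, and MT-ATP8 stands apart at 0.902 to 13.1 FPKM.

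Expression was compared with limma on log2(FPKM + 0.5) over 15519 genes, with Benjamini-Hochberg adjustment over all of them. All 16 mitochondrial genes had a mean above the 0.5 FPKM needed to enter the test. A gene is said to have fallen or risen where its adjusted p was under 0.05, and to be differentially expressed where its log2 fold change was also at least 1 in size. Of the 16 genes, 12 fell and 0 rose in the TF1-BAR cells, while 26.9% of all genes tested passed this threshold 10.5% with a lower and 16.3% with a higher level. With TPM over all genes 9 were lower, with TPM over nuclear genes or upper-quartile scaling 13 were, and 0 were higher under these scalings, whereas quantile normalization gave 3 lower and 2 higher, MT-RNR1 and MT-ND3. By class, 10 of 13 protein-coding genes, 1 of 2 rRNA genes and the tRNA gene fell. Only MT-TP, 1 of the 16, was differentially expressed, a definition that 4.75% of all genes met, 1.69% with a lower and 3.05% with a higher level. The median log2 fold change was −0.47 over the 16 genes and 0.07 over all genes tested. Both TF1-BAR libraries were below both TF1-BA libraries for 14 of the 16 genes, a separation seen for 28.4% of all genes tested, while 40.9% were separated in the other direction. The libraries overlapped for MT-RNR1 and MT-ND3. With 2 libraries a line, a two-sided exact permutation test of 1 gene cannot give a p below 0.333, so that each adjusted p here leans on a spread pooled over genes by limma. In limma fits that left out either TF1-BA library, 0 of the 16 genes had an adjusted p under 0.05, 2 did without TF1-BAR replicate 2, and 1, MT-TP, did where low genes were not filtered.

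**Figure D3:**
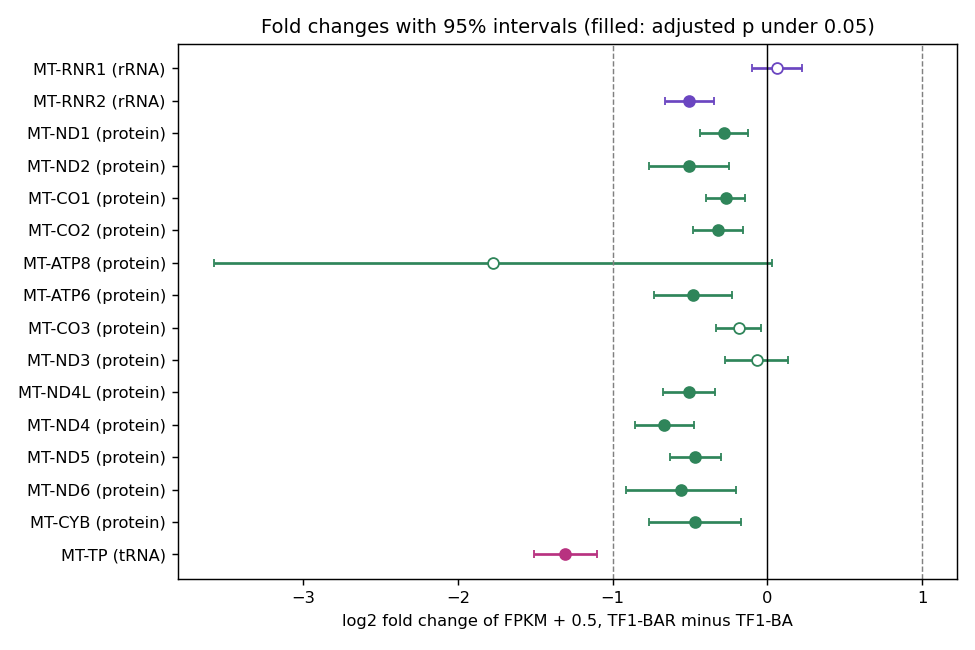
Log2 fold change of each mitochondrial gene (x axis, TF1-BAR minus TF1-BA on the log2(FPKM + 0.5) scale) with its 95% interval from limma. Filled points had an adjusted p under 0.05, dashed lines mark a log2 fold change of 1 in either direction, and MT-TP at −1.31 is the only filled point beyond them.

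The rRNA genes did not move together. MT-RNR1, the RNA of the small mitochondrial ribosomal subunit (positions 648 to 1601), was at 2318 and 2377 FPKM in the TF1-BA cells, against 2346 and 2558 FPKM in the TF1-BAR cells. The lines overlapped, and the log2 fold change of MT-RNR1 was 0.06 (95% interval −0.10 to 0.22, limma adjusted p = 0.497). MT-RNR2, the RNA of the large subunit (positions 1671 to 3229), was at 15531 and 15577 FPKM in the TF1-BA cells, against 11417 and 10506 FPKM in the TF1-BAR cells. MT-RNR2 fell, with a log2 fold change of −0.51 (standard error 0.0615, limma adjusted p = 0.00914). Within a library the ratio of MT-RNR2 to MT-RNR1 was 6.70 and 6.55 in the TF1-BA cells, against 4.87 and 4.11 in the TF1-BAR cells. A factor applied to a whole library cancels in this ratio, which was lower in both TF1-BAR libraries, with a difference of −0.57 on the log2 scale. The ratio is given as a description of the captured RNA, without a test. Only 69 bases separate the 2 genes, and they are cut from the same precursor.

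Complex I takes electrons from NADH, and 7 of its core subunits are mitochondrially encoded. Of these, 6 fell and 1, MT-ND3, did not pass the test. MT-ND4, one of the proton-pumping subunits (positions 10760 to 12137), was at 8043 and 8102 FPKM in the TF1-BA cells, against 5419 and 4782 FPKM in the TF1-BAR cells. Its log2 fold change of −0.67 (standard error 0.0747, limma adjusted p = 0.00804) was the largest fall among the protein-coding genes that passed the test. MT-ND4L, its upstream neighbour (positions 10470 to 10766), was at 2379.9 and 2539 FPKM against 1798 and 1667 FPKM, and fell by 0.51 on the log2 scale (limma adjusted p = 0.0105). The level of MT-ND4L was 29.6% and 31.3% of that of MT-ND4 in the TF1-BA cells, against 33.2% and 34.9% in the TF1-BAR cells, although both are thought to be translated from a shared messenger RNA.

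MT-ND1 and MT-ND2 lie upstream in the same precursor. MT-ND1 (positions 3307 to 4262), which helps to form the site where ubiquinone is reduced, was at 3347 and 3317 FPKM in the TF1-BA cells, against 2853 and 2634 FPKM in the TF1-BAR cells, and fell by 0.28 on the log2 scale (limma adjusted p = 0.0299). MT-ND2 (positions 4470 to 5511), another proton-pumping subunit, was at 2999 and 2781 FPKM against 2221 and 1861 FPKM. The fall of MT-ND2 was 0.51 on the log2 scale (limma adjusted p = 0.0253). For both genes the lines did not overlap.

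MT-ND5 and MT-ND6 abut each other on opposite strands, with 0 bases between them. MT-ND5 (positions 12337 to 14148), the distal pumping subunit, was at 2828 and 2857 FPKM in the TF1-BA cells, against 2155 and 1966 FPKM in the TF1-BAR cells, a log2 fold change of −0.47 (limma adjusted p = 0.0114). MT-ND6 (positions 14149 to 14673), the messenger RNA of the light strand, was at 2140.5 and 1977 FPKM against 1599.8 and 1221 FPKM. Its log2 fold change was −0.56 (standard error 0.138, limma adjusted p = 0.0417), and −0.36 (adjusted p = 0.0773) without TF1-BAR replicate 2. The ratio of MT-ND6 to MT-ND5 overlapped between the lines, with 0.757 and 0.692 in the TF1-BA cells, against 0.742 and 0.621 in the TF1-BAR cells. MT-ND3 (positions 10059 to 10404), a small subunit of the membrane arm, was at 1925 and 1880.2 FPKM in the TF1-BA cells, against 1943 and 1695 FPKM in the TF1-BAR cells. The lines overlapped for MT-ND3, and its log2 fold change of −0.07 had a 95% interval of −0.27 to 0.14 (limma adjusted p = 0.555).

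The single complex III gene, MT-CYB (positions 14747 to 15887), encodes cytochrome b. It was at 3166 and 3048 FPKM in the TF1-BA cells, against 2517 and 2009.5 FPKM in the TF1-BAR cells, and fell by 0.47 on the log2 scale (standard error 0.115, limma adjusted p = 0.0416). Without TF1-BAR replicate 2 the log2 fold change of MT-CYB was −0.30 (limma adjusted p = 0.0733). The SD of MT-CYB was 83.6 FPKM between the TF1-BA libraries and 359 FPKM between the TF1-BAR libraries.

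The 3 complex IV genes encode the catalytic core of cytochrome c oxidase, and 2 of them fell while MT-CO3 did not pass the test. MT-CO1 (positions 5904 to 7445) was at 17335 and 17089 FPKM in the TF1-BA cells, against 14331 and 14227 FPKM in the TF1-BAR cells, the narrowest spread relative to its level in the TF1-BAR cells of all 16 genes. It fell by 0.27 on the log2 scale (standard error 0.0489, limma adjusted p = 0.0209). MT-CO2 (positions 7586 to 8269) was at 9812 and 9244 FPKM against 7906 and 7401 FPKM, and fell by 0.32 (limma adjusted p = 0.0257). MT-CO3 (positions 9207 to 9990) was at 12818 and 12108 FPKM in the TF1-BA cells, against 11140.5 and 10768 FPKM in the TF1-BAR cells. Its log2 fold change of −0.19 (95% interval −0.33 to −0.04) had an adjusted p of 0.0696 from limma, although the lines did not overlap. As a share of the mitochondrial fragments, MT-CO1 held 26.4% of either TF1-BA library and 27.7% and 29.4% of the TF1-BAR libraries.

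The complex V genes encode 2 membrane subunits of the ATP synthase. MT-ATP6 (positions 8527 to 9207) was at 3800.0 and 3734 FPKM in the TF1-BA cells, against 2966 and 2458 FPKM in the TF1-BAR cells, and fell by 0.48 on the log2 scale (limma adjusted p = 0.0275). MT-ATP8 (positions 8366 to 8572) was counted with only 21 and 42 fragments in the TF1-BA libraries, against 15 and 3 in the TF1-BAR libraries. That is 0.148% to 0.351% of the level of MT-ATP6 per length in the first 3 of these libraries and 0.0367% in TF1-BAR replicate 2, for a pair of genes that share the 46 bases printed above and a common messenger RNA. The log2 fold change of MT-ATP8 was −1.77 with a 95% interval of −3.58 to 0.03 (limma adjusted p = 0.123). Both TF1-BAR libraries were below both TF1-BA libraries, and with limma voom on the recovered fragments the log2 fold change of MT-ATP8 was −1.93 with an adjusted p of 0.0377. The value ranged from −2.70 without TF1-BAR replicate 1 to −0.84 without TF1-BAR replicate 2, so that the call depended on the test and the size on single libraries.

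MT-TP was at 1514 and 1519.5 FPKM in the TF1-BA cells, against 656 and 572 FPKM in the TF1-BAR cells. These levels rest on 1857 and 1598 fragments against 703 and 625. The lines lay far apart compared with the spread of either, and the log2 fold change of −1.31 (standard error 0.0790, limma adjusted p = 0.00337) had a 95% interval of −1.51 to −1.10. MT-TP had an adjusted p of 0.0527 in the limma fit without TF1-BA replicate 2 and 0.0521 without replicate 1, and stayed under 0.05 in the other alternatives. Compared with MT-CYB, its nearest neighbour among the 16 genes, the level of MT-TP was 47.8% and 49.9% in the TF1-BA cells, against 26.1% and 28.5% in the TF1-BAR cells. Against MT-ND6, the other minus-strand gene, it was 70.7% and 76.9% in the TF1-BA cells, against 41.0% and 46.8% in the TF1-BAR cells. In both ratios the TF1-BAR libraries were below the TF1-BA libraries. A fragment longer than 68 bases that was counted for MT-TP must also cover bases beyond the printed sequence, so that the value need not measure the mature tRNA.

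**Figure D4:**
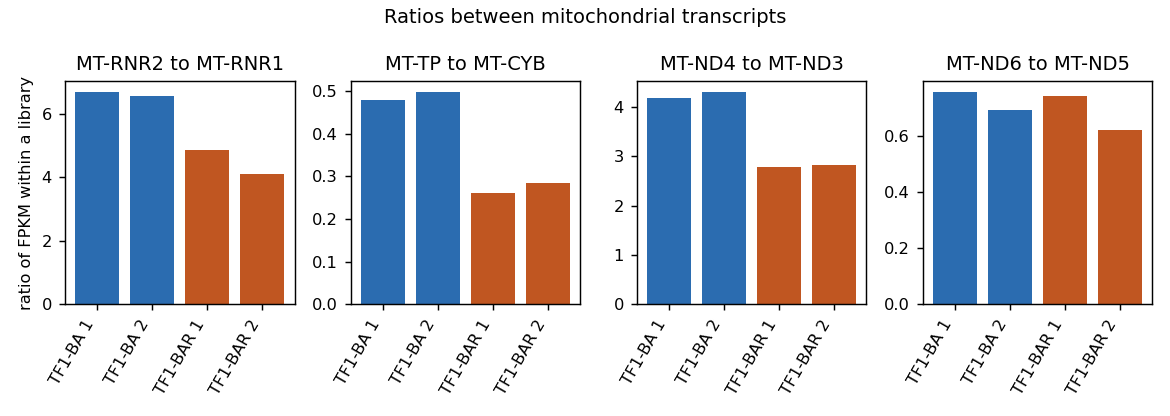
Ratios of FPKM between 2 mitochondrial genes within each library (y axis, one scale per panel), with TF1-BA libraries in blue and TF1-BAR libraries in orange. The ratios of MT-RNR2 to MT-RNR1, MT-TP to MT-CYB and MT-ND4 to MT-ND3 were lower in both TF1-BAR libraries, and that of MT-ND6 to MT-ND5 overlapped.

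Along the heavy-strand precursor the changes followed no single gradient. The rRNAs differed from each other by 0.57 on the log2 scale, and MT-ND3 with −0.07 lay between MT-CO3 with −0.19 and MT-ND4L with −0.51. The ratio of MT-ND4 to MT-ND3 was 4.18 and 4.31 in the TF1-BA cells, against 2.79 and 2.82 in the TF1-BAR cells, a difference larger than the spread within either line. The ratio of MT-CO1 to MT-CO2, from 1.77 to 1.92 in all libraries, overlapped between the lines.

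Copies of mitochondrial genes in the nuclear chromosomes can take up reads of the mitochondrial transcripts. The table lists 80 such genes by symbol, and a block of 6 on chromosome 1 matches MT-ND1, MT-ND2, MT-CO1, MT-CO2, MT-ATP6 and MT-CO3. MTATP6P1 was by far the highest of these, at 706 and 719 FPKM in the TF1-BA cells, against 588 and 505 FPKM in the TF1-BAR cells. It held 18.6% to 20.5% as many fragments as MT-ATP6 in the 4 libraries. In the reference, MTATP6P1 differs from MT-ATP6 at 10 of 681 aligned bases, and the longest identical run is 141 bases. The start of both genes is shown to let the likeness be seen, with the 1 base that differs in capitals, both on the plus strand.
MT-ATP6 stretch (chrMT:8527-8586): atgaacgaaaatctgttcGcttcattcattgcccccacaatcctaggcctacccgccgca
MTATP6P1 stretch (chr1:633696-633755): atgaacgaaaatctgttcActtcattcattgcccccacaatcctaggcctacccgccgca
MTND2P28 was at 202 and 186 FPKM in the TF1-BA cells, against 140 and 119 FPKM in the TF1-BAR cells, or 6.33% to 6.74% of the fragments of MT-ND2, and MTND1P23 held 1.27% to 1.34% of those of MT-ND1. MTCO1P12, at 21.9 and 18.4 FPKM in the TF1-BA cells, against 14.2 and 11.6 FPKM in the TF1-BAR cells, held 0.0814% to 0.126% of the fragments of MT-CO1. For the 4 copies with more than 5 fragments the lines did not overlap, and the TF1-BAR cells had the lower levels. The log2 fold change was −0.39 for MTATP6P1 (limma adjusted p = 0.0317) beside −0.48 for MT-ATP6, −0.59 for MTND2P28 (adjusted p = 0.0181) beside −0.51 for MT-ND2, and −0.26 for MTND1P23 (adjusted p = 0.0595) beside −0.28 for MT-ND1. MTCO1P12 differed more from its match, with −0.63 (limma adjusted p = 0.0308) beside −0.27 for MT-CO1, and the difference was not tested. MTCO2P12 and MTCO3P12 had at most 5 fragments in any library. Fragments of a copy and of its mitochondrial match may be interchanged, so that the levels of MT-ATP6 and MT-ND2 are uncertain to that extent. With the fragments of the 6 copies added to the genes they match, an alternative chosen after seeing the data, all 16 genes kept their direction and their side of the threshold.

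The nuclear genes that make, process and degrade mitochondrial RNA or maintain mitochondrial DNA were taken from a list of 77 genes in 6 roles, of which 76 were tested. Of these, 8 fell, 8 rose and 60 did not pass the test, so that 21.1% passed, beside 26.9% of all genes. An unadjusted p under 0.05 in limma was reached by 29 of the 76, as by 42.2% of all genes tested. In the main limma fit 0 were differentially expressed by both thresholds. TFAM met both in other fits, with −1.02 in limma voom (adjusted p = 0.000214) and −1.015 in limma with upper-quartile scaling (adjusted p = 0.01935). With TPM over nuclear genes TFAM had −1.04 (limma adjusted p = 0.0235). TK2 met both in limma voom, with 1.01 (adjusted p = 0.00161). The median log2 fold change of the list was 0.02, beside 0.07 over all genes tested. The balance of 8 falls and 8 rises depended on the scaling, with 11 lower and 1 higher under upper-quartile scaling, 8 and 4 with TPM over nuclear genes, 6 and 10 with TPM over all genes, and 8 and 5 with quantile normalization.

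Among 10 transcription genes, 2 fell and 0 rose. TFAM, which bends mitochondrial promoters and packages the DNA, was at 8.16 and 7.62 FPKM in the TF1-BA cells, against 4.71 and 3.22 FPKM in the TF1-BAR cells. TFAM had the largest fall of the list, with a log2 fold change of −0.93 (standard error 0.174, limma adjusted p = 0.0225). TFB1M, a methyltransferase of the small rRNA also listed under modification, fell by 0.53 on the log2 scale (adjusted p = 0.0280 from limma). POLRMT, the mitochondrial RNA polymerase, was at 9.95 and 9.50 FPKM against 8.92 and 8.71 FPKM and did not pass the test (log2 fold change −0.14, limma adjusted p = 0.224). Neither did TFB2M, the initiation factor, with 0.29 (adjusted p = 0.0982), nor TEFM, the elongation factor, with 0.12 (adjusted p = 0.483). On leaving out 1 library the log2 fold change ranged from 0.173 to 0.399 for TFB2M and from 0.043 to 0.203 for TEFM.

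Of 8 RNA processing genes, 1 fell and 1 rose. MTPAP, the mitochondrial poly(A) polymerase, fell by 0.33 on the log2 scale (limma adjusted p = 0.0340), and FASTKD5, needed for messenger RNAs that are not flanked by tRNAs, rose by 0.31 (limma adjusted p = 0.0442). The enzymes that cut at tRNA ends gave log2 fold changes of −0.04 for TRMT10C (adjusted p = 0.806), a subunit of the 5′ nuclease, and −0.19 for ELAC2 (adjusted p = 0.157), the 3′ nuclease. TBRG4, an RNA-binding protein of the FASTK family, had −0.21 (adjusted p = 0.0839).

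Among 12 genes of RNA stability and decay, 1 fell. SUPV3L1, the helicase of the mitochondrial degradosome, was at 13.9 and 13.4 FPKM in the TF1-BA cells, against 8.04 and 8.40 FPKM in the TF1-BAR cells, and fell by 0.70 on the log2 scale (standard error 0.0724, limma adjusted p = 0.00705). LRPPRC and SLIRP, which form the complex that stabilises mitochondrial messenger RNAs, did not pass the test, with −0.16 (limma adjusted p = 0.131) and −0.05 (adjusted p = 0.724). Log2 fold changes of REXO2 and PDE12, both exonucleases, were −0.29 (adjusted p = 0.115) and −0.38 (adjusted p = 0.105). Without TF1-BAR replicate 2 they were −0.15 and −0.22, and without TF1-BAR replicate 1 that of REXO2 was −0.43 (limma adjusted p = 0.0398).

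Modification of rRNA and tRNA was represented by 20 genes, of which 3 fell and 3 rose. MTO1, an enzyme of wobble uridine modification, fell by 0.46 on the log2 scale (limma adjusted p = 0.0285), and TRMT5, a tRNA guanosine methyltransferase, fell by 0.41 (limma adjusted p = 0.0273). Of 19 genes of mitochondrial DNA replication and maintenance, 2 fell and 2 rose. MGME1, a nuclease of mitochondrial DNA, was at 20.6 and 18.7 FPKM in the TF1-BA cells, against 28.0 and 34.6 FPKM in the TF1-BAR cells, and rose by 0.65 on the log2 scale (limma adjusted p = 0.0221). TOP1MT, the mitochondrial topoisomerase, rose by 0.30 (adjusted p = 0.0407 from limma), and DNA2, a helicase and nuclease, fell by 0.53 (adjusted p = 0.0312 from limma). POLG, the catalytic subunit of the DNA polymerase, had a log2 fold change of −0.05 (adjusted p = 0.637), and TWNK, the replicative helicase, 0.16 (adjusted p = 0.343). Of 9 regulators of mitochondrial biogenesis, 8 were tested, of which 0 fell and 2 rose. These were PPARGC1B, a coactivator, by 0.42 (limma adjusted p = 0.0363) and MYC by 0.45 (limma adjusted p = 0.0292). ESRRA, a nuclear receptor, did not pass the test, with 0.26 (limma adjusted p = 0.0574), and had 0.33 without TF1-BAR replicate 1.

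Chromosomal position moved with several of these values. The median log2 fold change was −0.35 over the 593 genes tested on chromosome 10 and 0.39 over the 440 genes on chromosome 20. Of all genes tested on chromosome 10, 264 fell, and of those on chromosome 20, 206 rose, beside 1630 falls and 2537 rises over all chromosomes. TFAM, SUPV3L1, MTPAP and DNA2, 4 of the 8 list genes that fell, lie on chromosome 10, and MGME1, FASTKD5 and CDK5RAP1, 3 of the 8 that rose, lie on chromosome 20. TWNK and PPRC1 of the list also lie on chromosome 10 and did not pass the test. The part of chromosome position in these values was not tested.

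**Figure D5:**
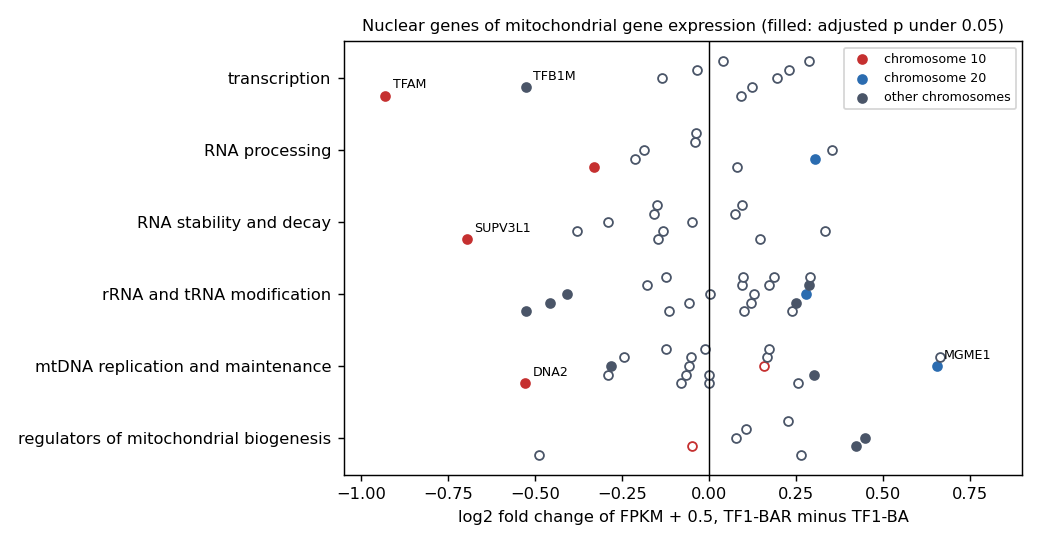
Log2 fold changes (x axis, TF1-BAR minus TF1-BA on the log2(FPKM + 0.5) scale) of the nuclear genes of mitochondrial gene expression and mitochondrial DNA maintenance, 1 row per role, with filled points for an adjusted p under 0.05, red for chromosome 10, blue for chromosome 20 and grey for others. The vertical offset within a row carries no value. TFAM at −0.93 and SUPV3L1 at −0.70 lie farthest to the left, and both are on chromosome 10.

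MALAT1 and NEAT1, long RNAs retained in the nucleus, were followed beside the mitochondrial RNAs. MALAT1 was at 16.9 and 16.2 FPKM in the TF1-BA cells, against 23.7 and 23.3 FPKM in the TF1-BAR cells, and rose by 0.49 on the log2 scale (limma adjusted p = 0.0108). NEAT1 was at 11.3 ± 0.930 FPKM in the TF1-BA cells, against 13.9 ± 1.49 FPKM in the TF1-BAR cells (SD, n = 2, log2 fold change 0.29, limma adjusted p = 0.107). Their part in the lower mitochondrial share was not tested.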

How the data were processed

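The deposited values are FPKM per gene and library. The sources describe 150-bp paired-end reads mapped to GRCh38 with TopHat2 2.0.13 and carried through Cufflinks and Cuffdiff 2.2.0. Whether these programs made the deposited FPKM was not checked. The annotation release is not given in the sources used here. Groups came from the sample labels, and columns were matched to samples by title. Fragments were recovered as the whole numbers behind the FPKM, with library sizes from genes with 1 exon. All 16 mitochondrial genes were whole at their GENCODE 44 length within 0.002 fragments in every library, and other genes at that or a fitted length. The tests used limma 3.58.1 in R 4.3.3 (eBayes with a trend) on log2(FPKM + 0.5) for genes with a mean of at least 0.5 FPKM, two-sided. The pseudocount of 0.5 makes folds of low genes smaller than the FPKM ratio. The thresholds were an absolute log2 fold change of 1 and an adjusted p of 0.05. The test was also tried on simulated counts with the same dispersion for every gene, which real libraries need not have. Nothing here rests on that trial. Copies were aligned with Biopython 1.88, and sequences were read from the GRCh38 reference. The members and lists were chosen with earlier results of these data known. Named were all mitochondrial genes, 10 fixed nuclear genes, and up to 3 per role with the smallest adjusted p. CDK5RAP1 and PPRC1 are outside this rule and are named for their chromosome after their values were seen. TK2 is also outside it and is named for its result with voom. Alternatives covered the pseudocount, filter, scaling, spread model, replicate block, voom on fragments and leaving out each library. One marker of other blood cells is not reported here.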

Additional observations from a re-analysis of the deposited data

How the results depend on the processing

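Of the mitochondrial genes, 12 fell, but 1 without a filter, 3 with quantile normalization, 5 without the trend of the spread, and 0 to 10 on leaving out 1 library. Quantile normalization gives every library the same set of values, so a gene of the same rank in all libraries gets no difference, and 2 mitochondrial genes rose under it. The number differentially expressed was 1, then 2 with voom, MT-TP and MT-ATP8, and 0 to 1 without 1 library. Reversed log2 fold changes were 0.52 for MT-ND3 and 0.089 for MT-CO3 with quantile normalization, −0.031 for MT-RNR1 with upper-quartile scaling, and with TPM over all genes 0.00042 for MT-ND3, 0.029 for TRMT10C, 0.016 for SLIRP and 0.011 for POLG. On leaving out 1 library they ranged from −0.00063 to 0.124 for MT-RNR1, −0.167 to 0.030 for MT-ND3 and −0.156 to 0.081 for TRMT10C, with the sign changed without TF1-BAR replicate 2, and from −0.145 to 0.045 for SLIRP, with the sign changed without TF1-BA replicate 2 or TF1-BAR replicate 1. The log2 ratio of summed FPKM was −0.35 for the protein class, −0.28 with TPM over all genes and −0.44 with upper-quartile scaling. For the rRNA class it was −0.42, then −0.35, −0.46 with TPM over nuclear genes and −0.51 with upper-quartile scaling. Without 1 library the ratios ranged from −0.40 to −0.29 (protein), −0.45 to −0.38 (rRNA) and −1.41 to −1.21 (tRNA), and the log2 difference of MT-RNR2 to MT-RNR1 from −0.69 to −0.45.

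Of the nuclear list, 8 genes fell, but 1 without a filter, 5 without the trend and 0 to 7 without 1 library. The 8 that rose became 0 without a filter, 4 with TPM over nuclear genes, 1 with upper-quartile scaling (beside 11 that fell), 5 with quantile normalization, 3 without the trend, 3 with the replicate block (beside 9 that fell), 14 with voom (beside 12) and 0 to 5 without 1 library. Over all genes, 737 were differentially expressed, against 487 with a pseudocount of 1 FPKM, 1146 with voom and 42 to 783 without 1 library. An adjusted p under 0.05 was reached by 4167 genes, 1446 without a filter and 42 to 3176 without 1 library. The causes were not tested. The replicate block left the 12 falls in place and took the adjusted p of MT-CO3 under 0.05. The numbers are not stated to pair libraries, and deviations of same-numbered libraries had a correlation of 0.0646 across genes.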

Other observations

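Outside the chromosome 1 block, 74 nuclear copies of mitochondrial genes are listed, of which 5 were above 1 FPKM in any library and none above 1.83 FPKM. MTND4P23, on chromosome 2, was at 1.06 and 1.09 FPKM in the TF1-BA cells and 1.21 and 1.19 FPKM in the TF1-BAR cells. All copies together held 0.709% to 0.772% as many fragments as the 16 mitochondrial genes.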
